A study of Sus scrofa with 29 samples.

Results

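Inflammatory cytokines and chemokines were examined in RNA scraped from the inner lining of 2 arteries of exercise-trained and sedentary pigs. The members were the probe sets whose platform gene symbol was IL6, CCL2, IL1A, IL1B, TNF, CXCL2, CXCL8 (or its older name IL8), CCL5, CCL20 or NFKBIA. Of these 10 genes, 9 had a probe set and together held 11 of the 23999 probe sets tested; CCL20 had none by symbol. Treadmill training of the exercised pigs went on for 16 to 20 weeks, on 5 days of each week, and arteries were taken about 24 h after their last bout. The sedentary pigs stayed in their enclosures. The groups were 7 brachial scrapes of sedentary pigs, 7 brachial scrapes of exercised pigs, 7 internal mammary scrapes of sedentary pigs and 8 internal mammary scrapes of exercised pigs. They came from 15 healthy pigs, of which 14 gave both arteries and the exercised pig 12_2 gave the internal mammary artery alone. No breed, sex, age or genotype is given in the labels for any group.

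Cytokines such as IL-6, IL-1 and TNF are secreted signals that act through receptors on nearby cells, and chemokines such as CCL2, CCL5, CXCL2 and CXCL8 draw leukocytes out of the blood. In endothelial cells many of these genes are switched on by the transcription factor NF-kB, which is held in the cytoplasm by inhibitors such as NFKBIA until a stimulus triggers their breakdown. Their transcripts are short-lived as a rule, and macrophages, smooth muscle cells and other cells of the vessel wall make several of them too.

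Each value is the log2 intensity of a probe set on a single-colour porcine array. A group mean is given with its SD. A log2 change is given with its SE from limma, fitted over all probe sets with the pig as a random block. Rose and fell are written only where the Benjamini-Hochberg adjusted p was under 0.05. The precision depends on the number of pigs and the spread between them, and arrays have no read depth. All 12 endothelial markers on the list had a probe set, and their mean differed little between groups, from -0.096 in exercised to 0.0461 in sedentary internal mammary scrapes relative to each marker's mean over the arrays. Singly, 4 of the 12 endothelial markers were higher and 1 lower in the brachial artery, as were 31.8% and 22.5% of all probe sets. Over both arteries 1 of the 12 rose with training, as did 2.88% of all. Markers of macrophages, T cells, smooth muscle and other cells were measured in the same scrapes. The smooth muscle mean spanned more, from -0.348 in exercised internal mammary to 0.328 in sedentary brachial scrapes. The fibroblast mean spanned from -0.207 in sedentary internal mammary to 0.286 in exercised brachial scrapes. Fewer cells of a type and less RNA per cell cannot be told apart in such samples.

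IL6, the cytokine that acts through its receptor on STAT3, was the member that passed the test for training. In brachial scrapes its values ran from 6.11 over a median of 7.33 to 7.72 in sedentary pigs, and from 7.47 over 8.38 to 8.83 in exercised pigs. Of the 7 exercised pigs 6 lay above every sedentary pig, and only pig 15_4 lay within the sedentary range. The group means were 7.15 ± 0.55 and 8.32 ± 0.43. In internal mammary scrapes IL6 ran from 5.96 over 7.24 to 7.39 in sedentary pigs and from 6.57 over 7.67 to 10.93 in exercised pigs. Here again 6 exercised pigs, now of 8, lay above every sedentary pig, while pigs 14_3 and 15_4 did not. The means were 6.92 ± 0.56 and 7.95 ± 1.33, the larger SD of the exercised group coming with the value of 10.93 in pig 10_1, whose nearest neighbour stood at 8.41.

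**Figure D1:**
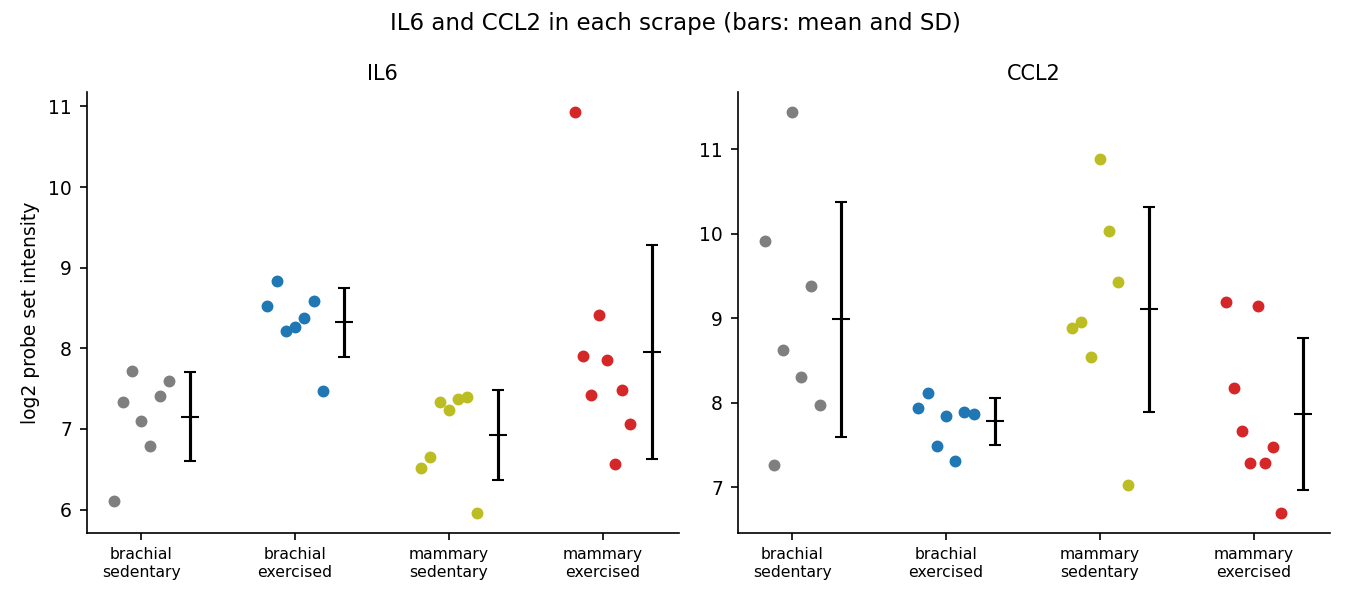
IL6 (left) and CCL2 (right) as log2 probe set intensity in each scrape of the 4 groups (7, 7, 7 and 8 pigs), with 1 point a pig and the group mean and SD as a bar beside the points. In both arteries 6 exercised pigs lie above every sedentary pig for IL6, and the CCL2 points of exercised brachial scrapes span 0.82 against 4.17 in sedentary ones.

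Averaged over both arteries, IL6 rose 2.16-fold with training (log2 change 1.11 ± 0.33, 95% interval 0.44 to 1.78, adjusted p = 0.0479). In this comparison 4.68% of all probe sets passed, 2.88% upward. In each artery alone the adjusted p was above the threshold, with a log2 change of 1.19 ± 0.42 in the brachial artery (adjusted p = 0.144) and 1.03 ± 0.41 in the internal mammary artery (adjusted p = 0.271). The difference between these changes was 0.16 ± 0.51, with an interval from -0.89 to 1.20. Over the 14 alternative settings other than left-out pigs the average change lay between 0.62 and 1.59, and it passed in 6 of them. With the pig as a fixed block it was 1.07 ± 0.31 (adjusted p = 0.091), and in 12 of the 15 analyses that each left out a pig the adjusted p lay between 0.0548 and 0.0959. In the other 3, without pig 10_1, 14_3 or 15_4, IL6 passed. Without pig 10_1, which had the extreme internal mammary value, the average change was smaller but its error was smaller too (0.89 ± 0.22, adjusted p = 0.0243), the brachial change passed (1.18 ± 0.29, adjusted p = 0.038) and the internal mammary change was 0.60 ± 0.28 (adjusted p = 0.411). A fit of the brachial scrapes alone gave 1.17 ± 0.24 (adjusted p = 0.0431).

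By collection date the pigs fell into an early set of 8 and a late set of 7, both with sedentary and exercised animals. IL6 changed by 1.59 ± 0.46 on average in the early pigs alone (adjusted p = 0.0994) and by 0.62 ± 0.34 in the late pigs alone (adjusted p = 0.566). In brachial scrapes its mean was 7.06 in sedentary against 8.52 in exercised pigs of the early set, and 7.27 against 8.17 in the late set. In internal mammary scrapes the means were 6.93 against 8.66 early and 6.91 against 7.24 late, so the exercised mean was the higher in all 4 settings. The mean of 8.66, over 4 pigs, includes the value of 10.93 in pig 10_1, as does the early change of 1.59. The ratio of 28S to 18S rRNA given in the labels was 1.33 ± 0.0841 in exercised and 1.19 ± 0.0763 in sedentary internal mammary scrapes, and 1.41 ± 0.166 against 1.38 ± 0.197 in brachial ones. With that ratio as a covariate IL6 changed by 1.16 on average (adjusted p = 0.0542). Nor did IL6 pass over both arteries with the days of collection as a covariate. It passed with early or late collection as a factor.

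CCL2, the chemokine that recruits monocytes through the receptor CCR2, had a lower mean in the exercised group of either artery, but its training change did not pass the test. Brachial values ran from 7.27 over 8.63 to 11.44 in sedentary pigs and from 7.31 over 7.87 to 8.12 in exercised pigs. The exercised pigs thus sat in a narrow band at the bottom of the sedentary range, below 5 of the 7 sedentary pigs and above pig 11_1, with a SD of 0.28 against 1.39. Internal mammary values ran from 7.03 over 8.96 to 10.88 in sedentary and from 6.70 over 7.57 to 9.19 in exercised pigs. There 3 sedentary pigs lay above every exercised pig, and the exercised pigs 10_1 (9.19) and 12_5 (9.14) lay within the upper part of the sedentary range. Sedentary pig 12_3 had the highest CCL2 of its group in both arteries.

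Over both arteries CCL2 changed by -1.23 ± 0.39 (95% interval -2.03 to -0.44, adjusted p = 0.0635), with nearly equal changes in the 2 arteries and a difference between them of 0.01 ± 0.60 (interval -1.23 to 1.25). Without pig 12_3 the average change was -0.88 ± 0.33 (adjusted p = 0.148). Without sedentary pig 17_1, which had the lowest internal mammary value of its group, it was -1.49 ± 0.37 and passed (adjusted p = 0.0232). It also passed with the days of collection as a covariate (-1.29, adjusted p = 0.0482) and with no block for the pig (adjusted p = 0.0337). Early pigs alone gave -1.37 ± 0.56 and late pigs alone -1.0 ± 0.53.

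**Figure D2:**
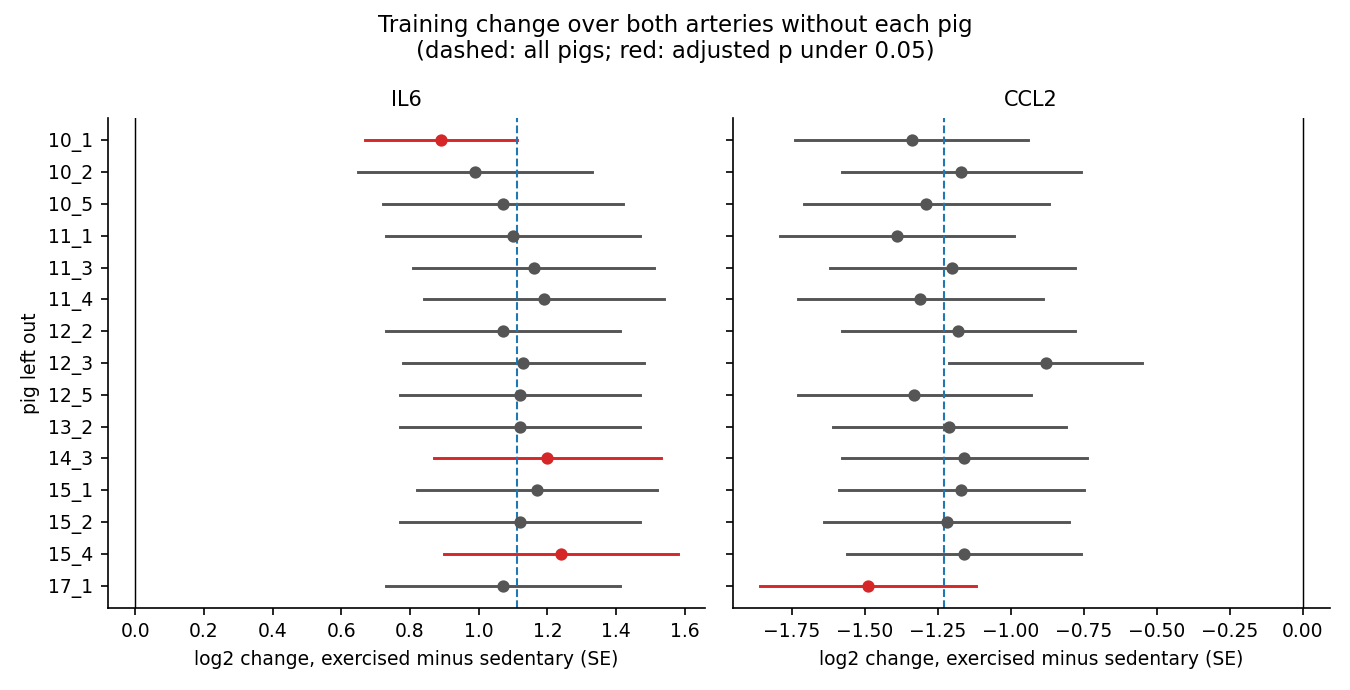
Log2 change of IL6 (left) and CCL2 (right) with training, averaged over both arteries, in 15 fits that each left out the pig named on the vertical axis; lines span 1 SE on each side, red marks an adjusted p under 0.05 and the dashed line is the change in all pigs. IL6 stays between 0.89 and 1.24 and passes in 3 of the 15 fits, and CCL2 stays between -1.49 and -0.88 and passes in 1.

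Macrophage and mast cell markers were also lower on average in some of the groups with low CCL2. Of 14 listed macrophage markers 10 had a probe set. With training 3 of these fell in brachial scrapes, where 1.63% of all probe sets passed, and 0 passed in internal mammary scrapes, against 0.596% of all. Relative to each marker's mean over the arrays, the brachial marker mean was 0.112 ± 0.275 in sedentary pigs (from -0.192 to 0.609) and -0.303 ± 0.179 in exercised pigs (from -0.506 to -0.0792). All 7 exercised pigs lay below the sedentary mean. In internal mammary scrapes it was 0.0861 ± 0.261 and 0.0918 ± 0.195. Once this mean entered the fit as a covariate, the CCL2 change was -0.44 ± 0.56 in the brachial artery (adjusted p = 0.81), -1.25 ± 0.45 in the internal mammary artery (adjusted p = 0.199) and -0.85 ± 0.39 on average (adjusted p = 0.274). IL6 then changed by 1.46 ± 0.32 on average (adjusted p = 0.0153). The marker mean itself was lower in exercised than in sedentary brachial scrapes and hardly differed between the internal mammary groups. This covariate therefore cannot separate cell content from a change with training. The part of macrophage content in the CCL2 values was not tested. Of 7 listed mast cell markers 2 had a probe set, the receptors KIT and MS4A2. Their mean was 0.0723 ± 0.518 in sedentary (from -0.394 to 1.17) and -0.172 ± 0.153 in exercised brachial scrapes (from -0.393 to 0.0582). In internal mammary scrapes it was 0.359 ± 0.532 (from -0.41 to 1.06) and -0.227 ± 0.179 (from -0.547 to 0.0268). The groups overlapped in both arteries and neither marker passed for training, the larger change being that of MS4A2 in the internal mammary artery (-0.98 ± 0.31, adjusted p = 0.143). The part of mast cells in the CCL2 values was not tested.

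The changes of the IL-1 and TNF genes with training were small and did not pass. IL1A and IL1B encode the 2 forms of interleukin-1 that share a receptor. Each had 2 probe sets, and the probe sets of 1 gene tracked each other loosely over the 29 arrays (r = 0.49 for IL1A and 0.41 for IL1B after removing group means). The average change was 0.04 ± 0.10 and -0.04 ± 0.13 for those of IL1A, and -0.03 ± 0.07 for either of IL1B. The 95% intervals of the IL1B changes reached from -0.18 to 0.12, a narrower range than for any other member. Pigs also carry IL1B2, a close relative of IL1B, and the sources used here do not say whether the IL1B probe sets separate the copies. Both IL1A probe sets and the IL1B probe set ending in A1_s_at lay in the dimmest 33.3% of probe sets, where detection could not be judged.

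TNF, the cytokine that acts through 2 receptors of its own family, ran from 7.23 over 7.45 to 8.27 in sedentary and from 6.97 over 7.46 to 7.82 in exercised brachial scrapes. In internal mammary scrapes it ran from 7.19 over 7.69 to 7.81 and from 7.24 over 7.72 to 8.18. The groups overlapped in both arteries. The average change was -0.02 ± 0.13 (95% interval -0.29 to 0.24).

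**Figure D3:**
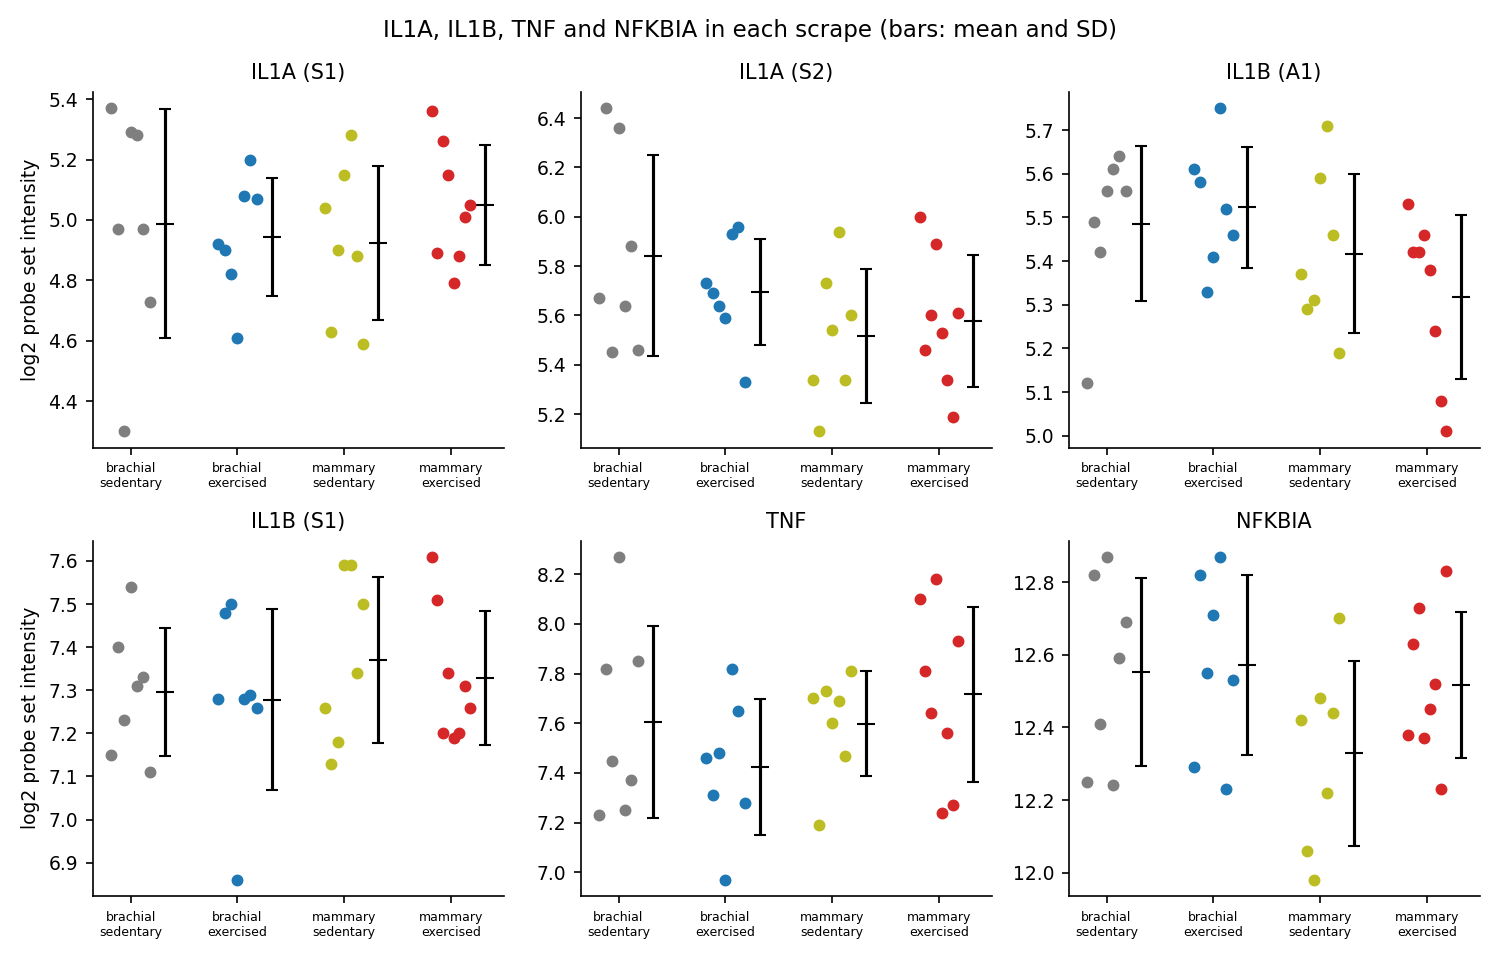
Log2 probe set intensity of both IL1A probe sets (ending in S1 and S2), both IL1B probe sets (A1 and S1), TNF and NFKBIA in each scrape of the 4 groups, with the group mean and SD as bars. Each panel has its own vertical axis, none starting at 0, and in every panel the exercised and sedentary points of an artery overlap.

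CXCL8 and CXCL2 encode chemokines that attract neutrophils. Brachial CXCL8 ran from 6.29 over 8.11 to 9.24 in sedentary pigs and from 5.84 over 6.65 to 8.62 in exercised pigs. Of the exercised pigs 2 lay below all sedentary pigs, while pig 15_2 stood at 8.62. In the internal mammary artery the values ran from 7.55 over 7.76 to 9.04 and from 7.21 over 8.02 to 9.02, with broad overlap. The change was -0.95 ± 0.44 in brachial (adjusted p = 0.287) and 0.23 ± 0.42 in internal mammary scrapes (adjusted p = 0.885). Their difference of -1.18 ± 0.53 had an unadjusted p of 0.0337 and an adjusted p of 1. In early pigs alone the brachial change was -1.73 ± 0.60, and in late pigs alone it was -0.16 ± 0.58. The brachial change passed in 0 of the 14 alternative settings other than left-out pigs (limma, lowest adjusted p = 0.127). CXCL2 changed by -0.22 ± 0.32 in brachial and by 0.05 ± 0.31 in internal mammary scrapes.

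CCL5, a chemokine for T cells and monocytes, changed by -0.34 ± 0.27 in brachial and by -0.15 ± 0.27 in internal mammary scrapes, and its groups overlapped in both. NFKBIA, itself a target of the NF-kB factors it inhibits, ran from 12.24 over 12.59 to 12.87 in sedentary and from 12.23 over 12.55 to 12.87 in exercised brachial scrapes. In internal mammary scrapes it ran from 11.98 over 12.42 to 12.70 and from 12.23 over 12.49 to 12.83. Its changes were 0.01 ± 0.12 and 0.19 ± 0.12, and 7 of the 8 exercised internal mammary values lay above the sedentary mean.

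Counted over the 11 probe sets, 0 passed for training in the brachial artery, where 1.63% of all probe sets passed. There 3 had an unadjusted p under 0.05 in limma, against 15.4% of all. In the internal mammary artery 0 passed against 0.596% of all, with 2 at an unadjusted p under 0.05 against 12.3%. Over both arteries 1 passed against 4.68% of all, with 2 at an unadjusted p under 0.05 against 18.5%. For the difference of the training change between arteries 0 passed, as did 0% of all probe sets. Here 1 member had an unadjusted p under 0.05, against 4.31% of all. The median change of the members was -0.13 for brachial and 0.06 for internal mammary scrapes, against 0.01 over all probe sets in both.

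**Figure D4:**
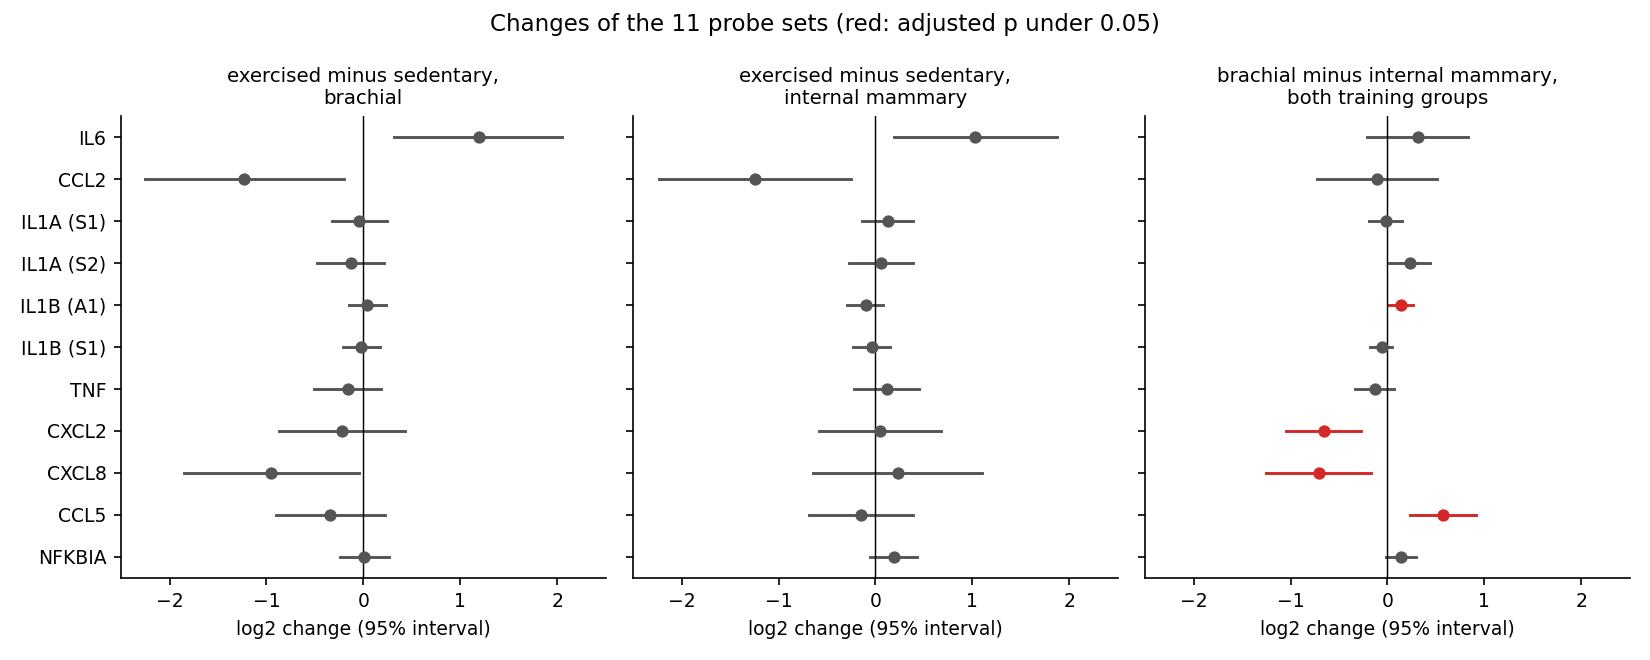
Log2 changes of the 11 member probe sets with 95% intervals from limma, for training in the brachial artery (left), training in the internal mammary artery (middle) and brachial minus internal mammary over both training groups (right); red marks an adjusted p under 0.05. IL6 lies to the right and CCL2 to the left of 0 in both arteries without passing, and CXCL2, CXCL8, CCL5 and the A1 probe set of IL1B pass between arteries.

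Between the 2 arteries 4 of the 11 member probe sets passed, as did 54.3% of all probe sets. CXCL2 and CXCL8 were lower in the brachial artery, as were 22.5% of all probe sets, and CCL5 and 1 of the IL1B probe sets were higher, as were 31.8%. IL6 and CCL2, whose training changes had the largest sizes among the members, gave artery differences of 0.31 ± 0.26 (adjusted p = 0.318) and -0.11 ± 0.30 (adjusted p = 0.772). IL6 passed between arteries without pig 10_1 (0.51 ± 0.18, adjusted p = 0.0155) and with the mean of the macrophage markers in the fit (0.62 ± 0.26, adjusted p = 0.0489). Of the 10 macrophage markers 5 were lower in the brachial artery, against 22.5% of all probe sets, and 1 was higher, against 31.8%. Here and for the members below, this covariate therefore cannot separate cell content from a difference between arteries.

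CXCL2 was 1.58-fold lower in the brachial artery (log2 change -0.66 ± 0.19, adjusted p = 0.00467). It was lower there in 12 of the 14 pigs with both arteries, the exceptions being sedentary pigs, among them 17_1 with a difference of 0.56. In the exercised pigs it was lower in 7 of 7, with differences from -1.53 to -0.08 (-0.80 ± 0.27, adjusted p = 0.0181), and in the sedentary pigs in 5 of 7 (-0.52 ± 0.27, adjusted p = 0.139). Left-out pigs changed the value over both groups between -0.75 and -0.58 and never its call, while that in exercised pigs was lost without pig 10_1 (-0.67 ± 0.29, adjusted p = 0.0697). Early pigs alone gave -0.77 ± 0.33 (adjusted p = 0.0794) and late pigs alone -0.52 ± 0.23 (adjusted p = 0.0876). With the mean of the macrophage markers in the fit neither call held. The value was then -0.45 ± 0.20 over both groups (adjusted p = 0.0641) and -0.36 ± 0.32 in exercised pigs (adjusted p = 0.426). The part of macrophage content in the CXCL2 difference was not tested. With no block for the pig the value in exercised pigs was -0.78 ± 0.32 (adjusted p = 0.0602).

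CXCL8 was 1.64-fold lower in the brachial artery (-0.71 ± 0.26, adjusted p = 0.0241). In exercised pigs the difference was -1.30 ± 0.37 (adjusted p = 0.00581), from -2.34 in pig 10_5 to 0.46 in pig 14_3, with 6 of 7 pigs lower in the brachial artery. In sedentary pigs it was -0.12 ± 0.38 (adjusted p = 0.834), with 4 of 7 lower. The test of whether these differ is the same as that of the training change between arteries given above, with an adjusted p of 1. Leaving out pig 10_1, 10_2, 10_5, 15_1 or 15_4 ended the call over both groups, with adjusted p-values up to 0.0591, and the call in exercised pigs held in each of the 15 analyses without a pig. With the mean of the macrophage markers in the fit the value was -0.56 ± 0.30 over both groups (adjusted p = 0.12). In exercised pigs it was then -0.98 ± 0.47 (adjusted p = 0.118). The part of macrophage content in the CXCL8 difference was not tested. The call over both groups was also lost once the rRNA ratio entered the fit (-0.46 ± 0.30, adjusted p = 0.216), with the mean of the smooth muscle markers (-0.47 ± 0.23, adjusted p = 0.0726), with no block for the pig (-0.73 ± 0.30, adjusted p = 0.0502), and in early (-0.91 ± 0.37, adjusted p = 0.0701) or late pigs alone (-0.61 ± 0.34, adjusted p = 0.183). In exercised pigs it was -1.90 ± 0.55 early (adjusted p = 0.0246) and -0.83 ± 0.45 late (adjusted p = 0.201).

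CCL5 was 1.48-fold higher in the brachial artery (0.57 ± 0.17, adjusted p = 0.005), in 11 of 14 pigs. Its within-pig differences ran from -0.37 in sedentary pig 15_1 over a median of 0.39 to 2.21 in sedentary pig 12_3. In sedentary pigs the difference was 0.66 ± 0.24 (adjusted p = 0.0306) and in exercised pigs 0.47 ± 0.23 (adjusted p = 0.103). The call over both groups held without each pig in turn, the lowest value being 0.44 ± 0.15 without pig 12_3, while that in sedentary pigs was lost without 11_4, 12_3 or 17_1, with no block for the pig (adjusted p = 0.0712), once the rRNA ratio entered the fit (0.63 ± 0.28, adjusted p = 0.0923), and in early (1.00 ± 0.37, adjusted p = 0.0817) or late pigs alone (0.21 ± 0.24, adjusted p = 0.607). With the mean of the macrophage markers in the fit the difference was larger, 0.82 ± 0.16 over both groups (adjusted p = 0.000115) and 1.01 ± 0.25 in exercised pigs, where it then passed (adjusted p = 0.00313). T cell markers, of which 9 of 10 had a probe set, were higher in the brachial artery for 5, against 31.8% of all probe sets, and lower for 1, against 22.5%. Their mean was 0.125 ± 0.239 in sedentary brachial and -0.127 ± 0.169 in sedentary internal mammary scrapes. In exercised pigs it was -0.0183 ± 0.0962 in brachial and 0.0178 ± 0.213 in internal mammary scrapes. The part of T cells in the CCL5 difference was not tested. In early pigs alone the CCL5 difference was 0.76 ± 0.28 (adjusted p = 0.043) and in late pigs alone 0.34 ± 0.16 (adjusted p = 0.117).

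**Figure D5:**
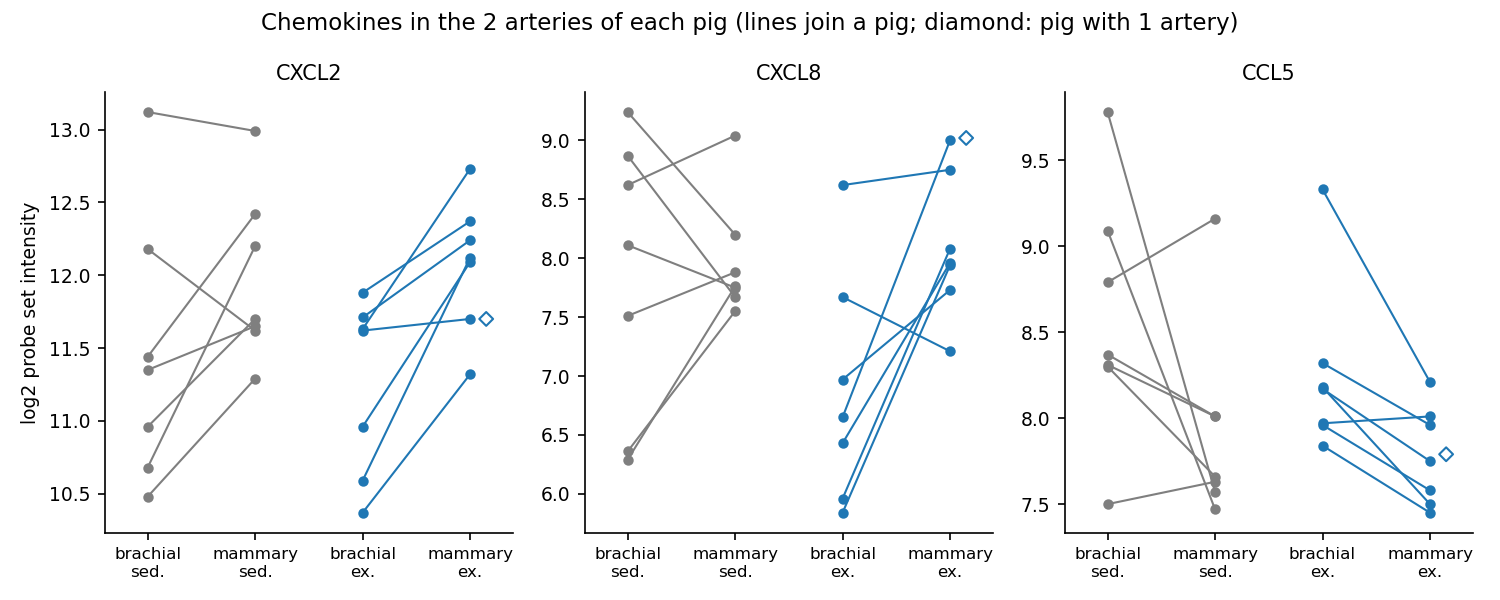
CXCL2, CXCL8 and CCL5 as log2 probe set intensity in the brachial and internal mammary artery of each pig, with lines joining the 2 arteries of a pig (grey sedentary, blue exercised) and a diamond for the exercised pig with 1 artery. CXCL2 is lower in the brachial artery in 12 of 14 pigs, CXCL8 in 10 and CCL5 in 3.

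The artery difference of IL1B depended on the probe set. That ending in A1_s_at was 0.14 ± 0.06 higher in the brachial artery (adjusted p = 0.037) and higher in 10 of 14 pigs, whereas that ending in S1_at gave -0.06 ± 0.06 (adjusted p = 0.374) and was higher in 4 of 14. The suffix _s_at marks a probe set that can match more than 1 transcript. The call of the former was lost without pig 11_1, 11_4, 14_3, 15_1, 15_2, 15_4 or 17_1 (adjusted p up to 0.0996), with no block for the pig (adjusted p = 0.0804) and in early pigs alone (0.03 ± 0.07, adjusted p = 0.77), and that in exercised pigs alone without 10_5, 14_3, 15_2 or 15_4 (up to 0.123). The IL1A probe set ending in S2_at gave 0.23 ± 0.10 (adjusted p = 0.0562) and passed in 6 of the 15 analyses without a pig (lowest adjusted p = 0.0241), with the macrophage marker mean in the fit (0.30 ± 0.11, adjusted p = 0.03) and with that of smooth muscle (0.36 ± 0.08, adjusted p = 0.000204). That ending in S1_at gave -0.02 ± 0.08, TNF gave -0.13 ± 0.10 and NFKBIA 0.14 ± 0.07 (adjusted p = 0.126), the last passing with the smooth muscle mean in the fit (0.20 ± 0.06, adjusted p = 0.00855). With the arrays centred again on their medians 4 members were higher and 2 lower, adding NFKBIA and the S2_at probe set of IL1A, and with the arrays quantile-normalized again 1 was higher and 2 lower, the A1_s_at probe set of IL1B no longer passing. Within the training groups 1 member passed in sedentary pigs (CCL5; 34.8% of all probe sets) and 3 in exercised pigs (CXCL2, CXCL8 and the A1 probe set of IL1B; 41.2% of all).

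The members differed widely in how much they varied between pigs of a group. The residual SD after the 4 group means was 1.03 for CCL2, 0.87 for CXCL8, 0.83 for IL6, 0.66 for CXCL2 and 0.53 for CCL5, against a median of 0.19 over all probe sets. By this measure CCL2 stood at percentile 99.5 of all probe sets and CCL5 at 95.1. The IL1B probe sets, at 0.17 and 0.18, lay close to that median, and NFKBIA (0.24), TNF (0.31) and IL1A (0.27 and 0.30) lay between. The part of single pigs in this spread was not tested. With each gene represented by its probe set of highest mean, sedentary pig 12_3 had the highest brachial value of its group for 7 of the 9 genes, all but IL6 and IL1A. The same scrape had the highest macrophage (0.609), mast cell (1.17) and neutrophil (0.167) marker means of its group, but not the highest T cell mean. Exercised pig 10_1 had the highest internal mammary value of its group for IL6, CCL2, IL1A and IL1B.

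Across pigs most correlations between members were positive, but none passed correction. Over 81 relations (36 pairs in each artery and 9 genes between arteries, with group means removed), 67 Pearson correlations were positive, 11 had an unadjusted permutation p under 0.05 and 0 an adjusted p under 0.05. The highest was that of IL1A with TNF in the internal mammary artery (15 pigs, r = 0.76, permutation p = 0.0013, adjusted p = 0.105; rho = 0.75, permutation p = 0.00146, adjusted p = 0.118). It was 0.62 without the 2 pigs farthest from the median of IL1A. IL6, which rose with training, and CCL2, whose training change was negative but did not pass, had r = 0.61 within groups of the internal mammary artery (permutation p = 0.00442, adjusted p = 0.123; rho = 0.63, permutation p = 0.0145, adjusted p = 0.236). This was 0.62 without the 2 pigs farthest from the median of IL6. In the brachial artery the same pair had r = -0.26 (14 pigs, permutation p = 0.458, adjusted p = 0.702; rho = -0.09, permutation p = 0.778, adjusted p = 0.877).

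Over the 29 arrays, after removing group means, the genes most like IL6 were MT1A (a metallothionein, r = 0.74), PPP1R15A (a stress-induced phosphatase subunit, 0.73), ZFP36 (which promotes decay of cytokine mRNA, 0.72), SLC2A3 (a glucose transporter, 0.71) and UBE2O (0.68). Those most like CCL2 were VSIG4 (0.84), CD163 (0.82), MRC1 (0.80), RNF128 (0.80) and PDLIM1 (0.77). VSIG4, CD163 and MRC1 are surface proteins of tissue macrophages. They were picked as the highest among 6756 genes, so the coefficients are a description, and arteries of 1 pig share that pig. None of the 10 genes passed for training over both arteries. ZFP36 changed by -0.03 ± 0.19 and CD163 by -0.46 ± 0.24, against the rise of IL6 and the CCL2 value of -1.23.

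Calls for training among receptors and pathway genes around the members lay near the share over all probe sets. The 8 lists held 96 measured genes. In limma 0 of them passed in the brachial artery, against 1.63% of all probe sets, with 17 at an unadjusted p under 0.05 against 15.4% of all. In the internal mammary artery 0 passed, against 0.596% of all, with 8 at an unadjusted p under 0.05 against 12.3%. Over both arteries 2 of the 96 passed, against 4.68% of all, with 16 at an unadjusted p under 0.05 against 18.5%. They were 1 of 9 chemokine receptor genes and 1 of 17 other chemokine genes, both upward, namely CCRL2, an atypical receptor that binds chemerin (0.50 ± 0.12, 1.42-fold, adjusted p = 0.013), and CXCL16, a membrane-bound chemokine of the vessel wall (0.43 ± 0.12, 1.35-fold, adjusted p = 0.038). In the other 6 lists 0 passed: 0 of 10 genes of IL6 receptor and STAT3 signalling, 0 of 12 of IL1 receptor signalling, 0 of 12 of TNF receptor signalling, 0 of 6 NF-kB subunits, inhibitors and kinases, 0 of 17 endothelial NF-kB targets and 0 of 13 genes of cytokine mRNA decay and inducible transcription factors. The smallest p among the NF-kB targets was that of the pentraxin PTX3 (0.86 ± 0.34, adjusted p = 0.154), which gave 1.47 ± 0.43 in the internal mammary artery alone (adjusted p = 0.105). Among the IL6 pathway genes it was that of IL11RA (-0.18 ± 0.07, adjusted p = 0.158). In the remaining lists it was that of TAB1 (0.12 ± 0.04), FADD (-0.18 ± 0.06), CYLD (0.09 ± 0.06) and ELAVL1 (-0.12 ± 0.04), with adjusted p-values of 0.097, 0.0962, 0.491 and 0.0967. The median change of the lists lay between -0.12 and 0.02.

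Between arteries the same lists changed often, as did 54.3% of all probe sets. Of the 13 genes of cytokine mRNA decay and inducible transcription factors, 9 were lower and 1 higher in the brachial artery, with a median of -0.57 against 0.03 over all probe sets. FOS and EGR1, transcription factors induced within minutes of a stimulus, differed most (-2.11 ± 0.25, adjusted p = 7.9e-08, and -1.26 ± 0.16, adjusted p = 2.61e-07). Of the IL1 receptor genes 5 of 12 were lower and 2 higher, with the adaptors TRAF6 at -1.18 ± 0.12 and MYD88 at -0.84 ± 0.12. Among the NF-kB targets 4 of 17 were lower and 5 higher, and the prostaglandin synthase PTGS2 had the largest change (-1.29 ± 0.26, adjusted p = 0.000158), followed by PTX3 (-0.69 ± 0.27). Of the other chemokines 3 of 17 were lower and 4 higher, with CXCL9 at 0.97 ± 0.37 and CCL8 at -0.78 ± 0.23. In the TNF receptor list 3 of 12 were lower and 4 higher (CASP8 -0.69 ± 0.11, TNFAIP8 -0.55 ± 0.14), and in the IL6 receptor list 2 of 10 were lower and 3 higher (MYC -0.75 ± 0.22, LIF 0.50 ± 0.12). NFKB1 (0.31 ± 0.05) and IKBKG (0.24 ± 0.05) were the 2 higher of the 6 NF-kB genes, of which 1 was lower. XCR1 (0.26 ± 0.05) and CCR2, the receptor of CCL2 (0.21 ± 0.04), were the 2 of 9 chemokine receptors that passed, both higher in the brachial artery.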

How the data were processed

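Values on single-colour porcine arrays were deposited as log2 intensities per probe set; affy is named, without a version, per the submitters' processing notes. How probes were summarised, corrected for background and normalized is not given in the sources used here, and neither detection calls nor probe sequences were used, so signal over background could not be judged. Of 24123 probe sets, 124 controls were left out. Gene names came from the platform annotation, and all 11 member probe sets had an Entrez identifier in the gene table of the reference.

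Groups were taken from titles, with which the treatment tags fit. For the 8 internal mammary samples of exercised pigs the source name says sedentary, and the titles were followed. The series text says the pig with 1 artery gave the brachial one, whereas the titles show the internal mammary one.

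A model of 4 group means was fitted to all 23999 probe sets (limma 3.58.1, R 4.3.3). The arteries of a pig are paired as the series text states, so the pig entered as a random block (consensus correlation 0.255). Moderated tests were adjusted by Benjamini-Hochberg over all probe sets. The fit was tested on simulated data. Correlations between pigs used residuals from group means and two-sided permutation tests within groups (1e+05 resamples). Input came through the R packages jsonlite 2.0.0 and data.table (1.17.8), summarised with pandas 2.3.3, numpy 2.4.6 and scipy 1.17.1 under Python 3.11.15; figures used matplotlib 3.10.9.

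Every member is described. In each pathway list the genes that passed for training over both arteries were named, or else the gene of smallest p there. For training in each artery alone, the gene of smallest p was not named, apart from PTX3 in the internal mammary artery. Between arteries so many passed that the 2 largest of a list were named. The 5 genes most like IL6 and CCL2 were taken by Pearson r. Members and lists were chosen with earlier results of these data known. Alternatives covered the block, dim probe sets, renormalization, prior, array weights, RNA ratio, collection time, marker means and leaving out each pig.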

Additional observations from a re-analysis of the deposited data

Results flagged for a closer look

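In 5 of 44 checks (11 probe sets in 4 groups) the highest or lowest pig stood apart from the rest of its group by Dixon's criterion, which chance meets in about 1 of 20 groups. IL6 was 10.93 in the internal mammary scrape of exercised pig 10_1, with the next value at 8.41. The brachial IL6 of the same pig, 8.52, lay within its group. Its internal mammary scrape had the highest macrophage (0.365) and T cell (0.285) marker means of its group, and other pigs the highest of the other lists. CCL5 was 9.33 in the brachial scrape of exercised pig 10_5, next to 8.32, and 9.16 in the internal mammary scrape of sedentary pig 15_1, next to 8.01. The latter scrape also had the highest neutrophil marker mean of its group, 3.37 above the markers' mean over the arrays. It was highest of its group for mast cell (1.06), macrophage (0.522) and fibroblast (0.0383) markers too, and other pigs for the other lists. The 2 others were low values of IL1B. Its A1_s_at probe set was 5.12 in the brachial scrape of sedentary pig 10_2, next to 5.42, and its S1_at probe set was 6.86 in that of exercised pig 12_5, next to 7.26.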

How the results depend on the processing

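Of 2212 values of members under alternatives, 2119 kept their side of the threshold, 66 lost the call and 27 gained it. The sign changed in 130 of the 2119, none of which passed with or without the alternative, and in 0 of the values that passed. The count of members passing for training in the brachial artery went from 0 to 1 with the pig as a fixed replicate block, where each artery was fitted alone, and lay between 0 and 1 without each pig. Over both arteries it went from 1 to 2 with no replicate block and to 0 with a fixed block, without dim probe sets, with a trended robust prior, with the 28S/18S or smooth muscle covariate, and in early or late pigs alone, and lay between 0 and 1 without each pig. Between arteries it went from 4 to 2 with no replicate block and to 1 in early and in late pigs alone, and lay between 2 and 5 without each pig. In sedentary pigs it went from 1 to 0 with no replicate block, with the 28S/18S covariate and in early or late pigs alone, and to 3 with the smooth muscle covariate, and lay between 0 and 2 without each pig. In exercised pigs it went from 3 to 1 with no replicate block and in early or late pigs alone, and lay between 2 and 3 without each pig. Other settings also moved the artery counts, among them the renormalizations given above. In exercised pigs the A1_s_at probe set of IL1B no longer passed after quantile normalization (limma, adjusted p = 0.163). With the macrophage marker mean in the fit, CXCL2 and CXCL8 no longer passed in those pigs, whereas CCL5 did. For training over both arteries the count stayed at 1 with the days of collection as a covariate and without pig 17_1. The member passing there was CCL2 and not IL6. The internal mammary, interaction and covariation counts stayed at 0. The alternatives on early or late pigs alone use fewer samples; for the others the cause was not tested.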
